A study of Mus musculus with 8 samples.

Results

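Pdcd1, Ctla4, Lag3, Havcr2, Tigit and Tox, 6 genes that mark activated and chronically stimulated T cells, were followed by symbol among the 31053 genes of each count table. The tables came from droplet single-cell RNA sequencing of magnetically sorted CD45+ cells, which are leukocytes including the brain's resident microglia. The control group was brain of normal mice and the glioma group was tumour tissue from the brains of mice bearing glioma. The labels list 4 samples in each group. Mouse strain, age, sex, treatment and the way the gliomas were made are not given in the sources used here. The counts of each group form 1 pooled library in which no cell can be traced to an animal, so no difference could be tested against the spread between animals, and the group and its library cannot be told apart. All intervals are exact 95% intervals that cover counting error only.

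Pdcd1 encodes the receptor PD-1, Ctla4 the receptor CTLA-4, Lag3 a receptor that binds MHC class II, Havcr2 the receptor TIM-3 and Tigit a receptor for the poliovirus receptor family. T cells put these receptors on their surface after their antigen receptor is engaged, and each restrains further activation when it meets its ligand on a neighbouring cell. Tox encodes a nuclear protein that is needed for the lasting, dysfunctional state called exhaustion, in which several of the receptors are carried together. Ctla4 is also a defining receptor of regulatory T cells, which depend on the transcription factor Foxp3, and Havcr2 is known in macrophages and dendritic cells as well as in T cells.

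Barcodes with at least 1000 unique molecular identifiers (UMIs, each counting 1 captured RNA molecule) and at most 10% mitochondrial UMIs numbered 13680 for control and 11049 for glioma. Cells were sorted into classes by raw UMIs of marker genes. T cells, with at least 2 UMIs of the CD3 genes, numbered 42 for control and 1314 for glioma. Glioma T cells were divided into 384 CD8, 408 CD4 without Foxp3, 142 Foxp3 and 329 with UMIs of none of these markers, and 51 more carried markers of both lineages. There were 111 natural killer (NK) cells and 6834 myeloid cells in the glioma library, and 12449 myeloid cells in the control library, of which 11762 had at least 3 UMIs of the microglia genes P2ry12, Tmem119 and Sall1. Glioma T cells carried Trac, a gene of the T cell receptor that no gate used, at 337 CPM (UMIs scaled to 1000000 per class sum), against 5.0 in NK and 0.93 in dendritic cells. The 329 glioma T cells without lineage markers differed in makeup. Trdc, a gene of the gamma delta T cell receptor, was at 250 CPM there, in 29.2% of cells, against 2.10 in CD4 and 4.45 in CD8. Trac was found in 43.8% of them, against 87.3% of CD4 and 83.6% of CD8 cells. The 237 control barcodes gated as dendritic went against that name, with C1qa at 6537 and P2ry12 at 1106 CPM, and enter only the correlations at the end, as 1 class sum. Barcodes with both CD3 and myeloid UMIs were left out of all classes, 139 for control and 400 for glioma. Of the passing barcodes 41 were the same in both libraries, and 6 of them were glioma T cells; leaving them out moved none of the differences reported for the 6 genes outside their intervals.

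Havcr2 lies at chr11:46454935-46481255 on the plus strand of GRCm38 and Ctla4 at chr1:60887000-60915832, also on the plus strand. Pdcd1 (chr1:94038305-94052553), Lag3 (chr6:124904361-124911705), Tigit (chr16:43648867-43664146) and Tox (chr4:6686353-6991557) lie on the minus strand. A pseudogene, Rpl18-ps1, overlaps Ctla4 on the same strand, and Gm11802 overlaps Tox on the opposite strand. RefSeq promoter sequences on build GRCm38.p6 matched 4 of the 6 genes. Their 250 bases before the transcription start are shown because in the glioma library Havcr2 was read in both myeloid and T cells, while the other 3 were highest in T or NK cells. The windows are chr11:46454681-46454930 (plus strand) for Havcr2, chr1:94052554-94052803 (minus) for Pdcd1, chr1:60908775-60909024 (plus) for Ctla4 and chr16:43664185-43664434 (minus) for Tigit. The Ctla4 window lies within the span given above for the gene, since its RefSeq start is downstream of the start of that span. Capitals mark letters that match a motif.
Havcr2: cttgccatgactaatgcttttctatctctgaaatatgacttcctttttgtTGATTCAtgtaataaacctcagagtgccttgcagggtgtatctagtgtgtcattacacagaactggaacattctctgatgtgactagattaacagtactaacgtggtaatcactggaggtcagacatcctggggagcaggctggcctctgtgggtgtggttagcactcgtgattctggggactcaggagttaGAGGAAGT
Pdcd1: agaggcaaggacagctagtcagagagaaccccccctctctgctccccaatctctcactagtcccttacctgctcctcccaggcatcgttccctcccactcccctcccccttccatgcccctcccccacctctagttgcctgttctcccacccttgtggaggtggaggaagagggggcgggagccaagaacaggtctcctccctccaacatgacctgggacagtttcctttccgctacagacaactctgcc
Ctla4: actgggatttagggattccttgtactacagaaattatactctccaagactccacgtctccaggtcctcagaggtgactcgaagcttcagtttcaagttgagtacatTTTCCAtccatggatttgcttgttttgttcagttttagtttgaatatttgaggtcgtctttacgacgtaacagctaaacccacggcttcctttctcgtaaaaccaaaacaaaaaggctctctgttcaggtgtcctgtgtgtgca
Tigit: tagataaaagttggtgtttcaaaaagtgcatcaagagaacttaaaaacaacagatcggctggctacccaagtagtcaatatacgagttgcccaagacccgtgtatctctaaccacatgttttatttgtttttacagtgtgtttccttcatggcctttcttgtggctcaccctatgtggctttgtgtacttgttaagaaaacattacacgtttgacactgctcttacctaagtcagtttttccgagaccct
Havcr2 held the letters GAGGAAGT, a motif of the myeloid factor PU.1, from position -8, and TGATTCA, a match to the AP-1 motif TGANTCA, from position -200 relative to the start. Ctla4 held TTTCCA, the reverse complement of the NFAT core TGGAAA, from position -144. Both strands were searched and no matches overlapped. Among 32851 promoter windows of the same length, 2.44% held the PU.1 letters, 6.75% the AP-1 letters and 18.6% the NFAT letters. The NR4A motif AAAGGTCA, present in 1.34% of the windows, was not among these letters of the 4 genes. A match describes letters in a window and says nothing of binding.

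In the glioma library Pdcd1 was read mainly in T cells. In the control library myeloid cells held 62.1% of its 261 UMIs, at 1.85 CPM. Glioma T cells held 3258 of the 4364 Pdcd1 UMIs in passing barcodes, or 74.7%. Its level was 334 CPM (316 to 353) in CD4, 266 (251 to 282) in CD8, 168 (151 to 187) in the T cells without lineage markers and 151 (131 to 172) in Foxp3 cells. The intervals of the last 2 classes overlapped and those of the others did not. NK cells were at 32.5 CPM, from 26 UMIs in 7 of 111 cells. Glioma neutrophils at 0.686 CPM and myeloid cells at 0.675 CPM were at the level that free RNA could give, which for myeloid cells was at most 0.709 CPM by the level of T cell genes there. Control T cells held 13 Pdcd1 UMIs in 6 of 42 cells, or 48.6 CPM (25.9 to 83.2), and 6 of those UMIs lay in 1 cell.

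Ctla4 followed another order. Foxp3 cells were highest among the glioma classes, at 532 CPM (496 to 571), with Ctla4 UMIs in 123 of 142 cells. CD4 cells were at 282 CPM (266 to 300), CD8 cells at 90.8 (82.2 to 100.1) and T cells without lineage markers at 85.8 (73.9 to 99.1), the last pair with overlapping intervals. NK cells were at 42.5 CPM, with a UMI in 19 of 111 cells. The 21 Ctla4 UMIs of control T cells gave 78.6 CPM (48.6 to 120.1), but 17 of them came from 1 CD4 cell, so that this level rests on that cell.

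Lag3 had different main sources in the 2 libraries. In the control library 39142 of the 41364 Lag3 UMIs in passing barcodes, or 94.6%, lay in myeloid cells, at 447 CPM (443 to 452) with a UMI in 81.2% of cells. In the glioma library myeloid cells held 19.0% of the Lag3 UMIs, at 6.84 CPM (6.33 to 7.38), and T cells held 53.9%. Within glioma lymphocytes the level was 291 CPM (274 to 308) in CD4, 179 (158 to 202) in Foxp3 and 64.3 (57.1 to 72.2) in CD8 cells. NK cells at 33.8 CPM and T cells without lineage markers at 27.5 CPM came next, with overlapping intervals.

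Havcr2 was found on both sides of the myeloid and lymphoid divide. Glioma dendritic cells were at 166 CPM (157 to 176). CD4 cells at 121 CPM (110 to 133), myeloid cells at 109 (107 to 111), Foxp3 cells at 105 (89.4 to 123) and neutrophils at 95.3 (84.5 to 107) formed a chain in which each interval overlapped the next. CD8 cells were lower, at 45.6 CPM (39.6 to 52.3), as were T cells without lineage markers at 34.0 and NK cells at 17.5. Myeloid cells held 66.5% of the 15759 Havcr2 UMIs in passing glioma barcodes and T cells 6.28%. The level that free RNA could give in glioma T cells was at most 3.03 CPM, against a measured 77.9 CPM.

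Tigit and Tox were sparse. Tigit reached 16.3 CPM (8.66 to 27.8) in NK, 14.4 (8.90 to 22.0) in Foxp3, 10.7 (7.71 to 14.6) in CD4 and 7.13 (4.87 to 10.1) in CD8 cells, and each of these intervals overlapped the next. Glioma neutrophils and dendritic cells held 0 Tigit UMIs, with intervals reaching up to 1.27 and 0.490 CPM, and glioma myeloid cells held 2. Tox stood at 32.9 CPM (24.2 to 43.6) in Foxp3 and 30.7 (25.4 to 36.7) in CD4 cells, which overlapped. It was at 16.3 CPM in T cells without lineage markers, 11.3 in NK and 8.02 (5.61 to 11.1) in CD8 cells. Only 29 of 384 CD8 cells carried a Tox UMI, against 87 of 408 CD4 cells.

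**Figure D1:**
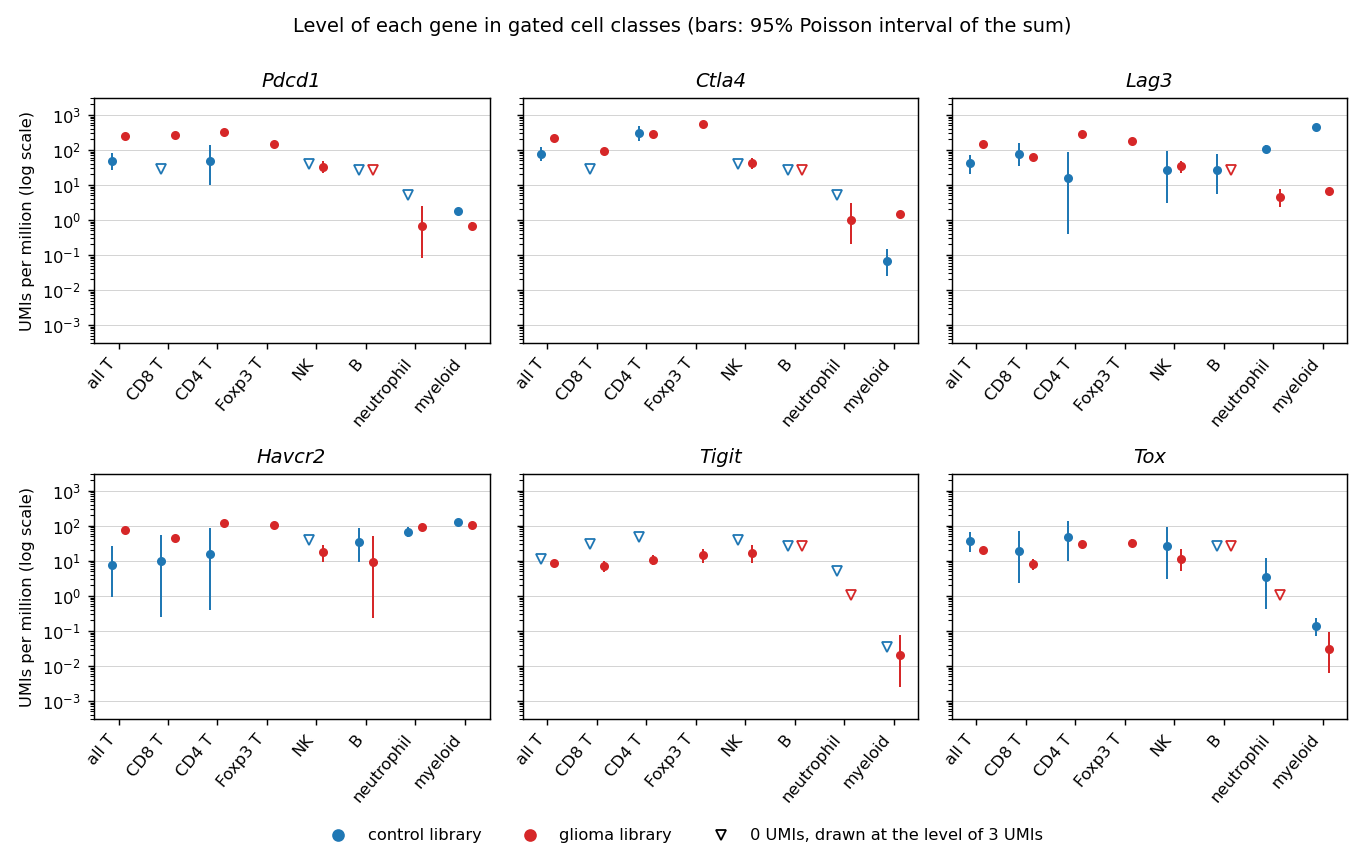
CPM on a log axis for each gene in 8 gated cell classes of the control library (blue) and the glioma library (red), with 95% Poisson intervals of the summed counts; open triangles mark 0 UMIs and are drawn at the level that 3 UMIs would give. Lag3 of myeloid cells is at 447 for control and 6.84 for glioma, and Ctla4 is highest in Foxp3 cells, at 532.

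Shares of cells with a UMI depend on depth, so each cell was also thinned to 2000 UMIs. Before thinning, Pdcd1 was detected in 66.9% of CD4 and 54.9% of CD8 cells, at median depths of 7861 and 8695 UMIs, and afterwards in 39.3% (34.5 to 44.2) and 29.8% (25.3 to 34.7). Ctla4 was detected in 86.6% of Foxp3 cells and after thinning in 56.7% (48.1 to 65.0), against 36.0% of CD4 and 16.0% of CD8 cells. Lag3 was detected in 57.1% of CD4 and 35.4% of CD8 cells, and after thinning in 31.1% and 9.95%. Havcr2 was detected in 62.6% of glioma myeloid, 46.1% of CD4 and 25.3% of CD8 cells, and after thinning in 19.4%, 18.8% and 6.02%. For comparison, neutrophils, at a median of 3464.5 UMIs, showed Pdcd1 in 0.529%, Ctla4 in 0.794% and Lag3 in 1.59% of 378 cells. Among 28 glioma B cells, at a median of 3471 UMIs, none of Pdcd1, Ctla4, Lag3, Tigit and Tox had a UMI. For so few cells the interval reaches up to 33.8 CPM. The 42 control T cells had a median of 5010 UMIs.

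The first comparison asked how the 6 genes differed between T cells of tumour and of normal brain. Pdcd1 was 5.08-fold higher in the glioma library (256 against 48.6 CPM, log2 ratio 2.34, 1.62 to 3.31). Lag3 was higher by a log2 ratio of 1.77 (0.99 to 2.84; 147 against 41.2 CPM), Ctla4 by 1.41 (0.83 to 2.14; 214 against 78.6 CPM) and Havcr2 by 3.06 (1.52 to 6.43; 77.9 against 7.48 CPM from 2 UMIs). The ratio of Ctla4 was 3.62 without the control cell that carried 17 UMIs and 0.80, under 2-fold, by the mean of per-cell CPM. Tox was the exception, at 20.2 CPM in glioma and 37.4 CPM in control T cells, where 10 cells had 1 UMI each, with a log2 ratio of -0.95 (-1.79 to 0.19), which was -1.17 with a 5% mitochondrial limit, -1.29 with at most 1 myeloid UMI and -1.30 with up to 8. Tigit had 108 UMIs in glioma and 0 in control T cells, and 42 cells are too few to give it a fold, since 3 UMIs there would already be 11.2 CPM against 8.50 in glioma. By the sums, 4 of the 6 genes were at least 2-fold higher, where 11.7% of 10601 genes with at least 20 UMIs over both sums were at least 2-fold higher and 17% at least 2-fold lower.

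The 2 T cell sums differed in makeup. The control sum held 17 CD8, 9 CD4, 0 Foxp3 and 16 cells without lineage markers, while the 142 glioma Foxp3 cells carried 778 of the 2715 glioma Ctla4 UMIs, so makeup and group cannot be told apart. RNA of other cells differed between the sums too. C1qa, a microglia and macrophage gene, was at 404 CPM in control and 52.0 in glioma T cells, and the neutrophil gene S100a8 at 3974 CPM, found in 4.76% of the cells, and 64.6 CPM. Free RNA could give at most 25.0 of the 41.2 CPM of Lag3 and more than the whole level of Havcr2 in control T cells, so control Havcr2 is not distinguishable from free RNA. When T cells with up to 8 myeloid UMIs in place of 3 were admitted, the log2 ratio of Havcr2 was 1.21. Among other genes of the pathway, the costimulatory receptors Tnfrsf4 (OX40; 375 against 33.7 CPM), Tnfrsf9 (4-1BB; 324 against 44.9) and Tnfrsf18 (GITR; 462 against 149.7) made up the 3 of 7 that were at least 2-fold higher in glioma T cells. None of 10 other inhibitory receptors was at least 2-fold higher and 2 were lower. Of 10 genes of naive and stem-like T cells 8 were at least 2-fold lower, among them Tcf7 (53.8 against 217 CPM), Lef1 (53.4 against 224) and Klf2 (143 against 1253). Their median log2 ratio was -2.01, beside -0.12 over all genes. The factors that respond to antigen receptor signals differed in direction, with Nr4a1 at 64.7 against 236 CPM, Nr4a2 at 69.6 against 142 and Nr4a3 at 113 against 41.2.

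**Figure D2:**
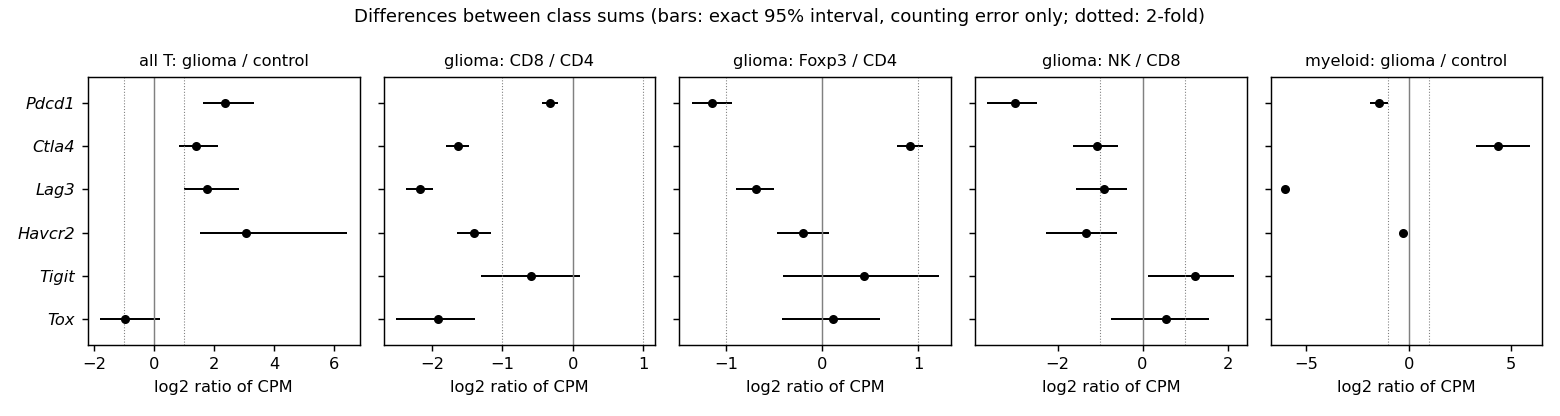
Log2 ratios of CPM for each gene in 5 comparisons of class sums, with exact 95% intervals; dotted lines mark 2-fold, and genes with 0 UMIs on a side or under 20 UMIs over both sums are not drawn. In the second panel all 6 points lie left of 0, from -0.33 for Pdcd1 to -2.17 for Lag3.

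Within the tumour, CD4 cells carried more of 4 of the 6 transcripts than CD8 cells did. The log2 ratio of CD8 to CD4 was -2.17 (-2.37 to -1.99) for Lag3, -1.92 (-2.52 to -1.39) for Tox, -1.64 (-1.80 to -1.47) for Ctla4 and -1.41 (-1.65 to -1.17) for Havcr2. Pdcd1 differed little, at -0.33 (-0.44 to -0.21), and the interval of Tigit, -0.59 (-1.31 to 0.11), included 0. Of 9824 genes compared, 7.41% were at least 2-fold lower and 6.12% at least 2-fold higher in CD8 cells, while 4 of the 6 were lower and none was higher. Both sums come from the same library, with C1qa at 42.1 CPM in CD8 and 54.2 in CD4 cells and Lyz2 at 103 and 105. The neutrophil gene S100a8 differed more, at 19.6 CPM in CD8 and 95.4 in CD4 cells, found in 7.55% and 6.13% of cells.

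Other genes of the same families separated the lineages in both directions. The inhibitory receptors Cd160 (67.7 against 5.50 CPM) and Cd244a (12.02 against 0.52 CPM, from 2 UMIs in CD4) were higher in CD8 cells, and these were the 2 of 9 measured that passed 2-fold upwards, with 1 lower. Of 7 costimulatory receptors 5 were at least 2-fold lower in CD8 cells, including Tnfrsf4 (97.1 against 604 CPM), Icos (116 against 422) and Cd28 (69.9 against 187). Of 13 transcription factors 7 were lower and 2 higher. Maf, which supports cytokine production in helper cells, was at 10.2 against 204 CPM and Nr4a1 at 23.2 against 105. Eomes, a factor of cytotoxic cells, was at 37.8 against 4.19 CPM. Effector genes split into 5 higher and 4 lower of 13, with the granzyme genes Gzmb at 1509 against 234 CPM and Gzma at 1053 against 45.9, and the cytokine gene Ifng at 34.3 against 707. CD8 and CD4 cells therefore differed in which effector genes they carried as well as in the inhibitory receptors.

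Foxp3 cells set apart Ctla4 and Pdcd1. Ctla4 was 1.89-fold higher than in CD4 cells (log2 ratio 0.91, 0.78 to 1.05) and Pdcd1 was 2.21-fold lower (-1.15, -1.36 to -0.94). Lag3 was lower by -0.70 (-0.90 to -0.50) on the log2 scale. The intervals of Havcr2 (-0.20, -0.47 to 0.07), Tigit (0.44, -0.41 to 1.21) and Tox (0.11, -0.42 to 0.60) included 0, and for Tigit, with 21 and 41 UMIs, they allow a 2-fold difference. Pdcd1 was thus the 1 gene of the 6 at least 2-fold lower, beside 4.56% of 9054 genes, and 0 of 6 were at least 2-fold higher, beside 6.76%. With at most 1 myeloid UMI the ratio of Pdcd1 was -0.94, which ends that call, and with up to 8 that of Ctla4 was 1.02. Ikzf2 (Helios; 853 against 144 CPM) and Entpd1 (CD39; 71.2 against 33.5), which are known in regulatory T cells, were higher, and so was Klrg1 (127 against 8.12). Ifng was at 30.8 against 707 CPM, and 8 of 11 measured effector genes were at least 2-fold lower, whereas Gzmb was higher, at 971 against 234.

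NK cells, which are innate lymphocytes that share killing genes with CD8 cells, held less Pdcd1. The log2 ratio of NK to CD8 was -3.01 (-3.65 to -2.47) for Pdcd1, -1.08 (-1.65 to -0.59) for Ctla4 and -1.33 (-2.28 to -0.60) for Havcr2. Lag3 was lower by -0.91 (-1.56 to -0.36). Tigit was higher by 1.22 (0.14 to 2.16), from 13 and 32 UMIs. Of the 6 genes 3 were at least 2-fold lower and 1 higher, where 8.88% of 9117 genes were lower and 7.81% higher. Pdcd1 alone of these 4 stayed past 2-fold in all alternatives run. With up to 8 myeloid UMIs Havcr2 was at -0.12 and Ctla4 at -0.95, and Tigit was at 0.99 with at most 1 myeloid UMI and 0.93 by per-cell means. Tox was at 0.55 (-0.75 to 1.57). NK cells carried more Gzma (5821 against 1053 CPM), Prf1 (338 against 106) and Eomes (153 against 37.8), and Tnfrsf4 had 2 UMIs in them, or 2.50 CPM against 97.1.

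In myeloid cells the question was which of the receptor genes these cells carry themselves and what they offer as ligands. Lag3 was 65.3-fold lower in the glioma than in the control library (log2 ratio -6.03, -6.14 to -5.92), and Havcr2 was nearly level (109 against 131 CPM, -0.27, -0.31 to -0.23). The ratio of Pdcd1 was -1.45 (0.675 against 1.85 CPM), with free RNA put at 0.516 CPM in control cells. That value rests on 2 Pdcd1 UMIs in the free RNA and is no firm limit. The source of Pdcd1 in control myeloid cells was not tested. The ratio of Ctla4 was 4.35 (1.51 against 0.0685 CPM), where free RNA could give at most 1.73 CPM of Ctla4 in glioma myeloid cells. Tigit and Tox had under 20 UMIs over both sums. Of the 6 genes 2 were at least 2-fold lower and 1 higher, among 15122 genes of which 35.7% were lower and 14.9% higher. The glioma sum consisted mostly of cells without microglia markers and the control sum mostly of microglia, so makeup and group cannot be told apart.

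Lag3 was higher where the microglia gene P2ry12, which the microglia gate used, was higher. In the control library it was at 459 CPM in microglia-gated cells, where P2ry12 was at 2249 CPM, and at 149 CPM in the 687 other myeloid cells, where P2ry12 was at 139. In the glioma library it was at 37.0 CPM (31.5 to 43.1) in the 230 microglia-gated cells, with P2ry12 at 59.9 CPM, and at 5.41 (4.94 to 5.91) in the other 6604, with P2ry12 at 9.98. Havcr2 followed that order within control cells, at 134.5 and 50.2 CPM, but not within glioma cells, at 93.0 and 109.7 CPM. In the 687 control cells free RNA could give at most 54.3 of the 149 CPM of Lag3. For Havcr2 it could give at most 26.6 of the 50.2 CPM there.

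Ligand genes were higher in the glioma myeloid sum as a list, with 7 of 14 measured at least 2-fold higher and 2 lower, and a median log2 ratio of 1.43 beside -0.46 over all genes. Cd274 and Pdcd1lg2, the ligands of PD-1, were at 175 against 26.6 CPM and at 39.2 against 0.0343 CPM, the latter from 3 control UMIs. Of the ligands of CTLA-4, Cd80 was at 56.6 against 8.92 CPM and Cd86 at 216 against 249.7. The MHC class II genes, whose products LAG-3 binds, reached 5128 CPM for H2-Aa, 6081 for H2-Ab1 and 4932 for H2-Eb1, against 152, 141 and 132. Lgals9, a ligand of TIM-3, was at 70.7 against 118 CPM. Of the ligands of TIGIT, Pvr was at 33.1 against 29.7 CPM and Nectin2 at 4.53 against 32.4. Nr4a2, named in the title of the study, was at 96.5 against 8.78 CPM, and the inhibitory molecule gene Vsir at 139 against 1083.

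The receptors were then read together in single cells. UMIs of at least 3 of the 6 genes were found in 57.4% of CD4 (52.4 to 62.2), 57.7% of Foxp3 (49.2 to 66.0), 32.6% of CD8 (27.9 to 37.5), 6.08% of the T cells without lineage markers and 3.6% of NK cells. No CD8 cell held all 6. Thinned to 2000 UMIs, the shares were 15.1% of CD4 (11.7 to 18.9), 10.6% of Foxp3 (6.08 to 16.9) and 2.09% of CD8 cells (0.908 to 4.08), from 405, 141 and 382 cells deep enough. The order of CD4 above CD8 therefore held at equal depth, and the sizes did not. The most frequent combination in CD4 cells was Pdcd1, Ctla4, Lag3 and Havcr2, in 64 cells, followed by Ctla4 alone in 44. In CD8 cells 100 held none of the 6, 36 held Pdcd1, Ctla4 and Lag3, and 30 held those with Havcr2. In Foxp3 cells Ctla4 alone led with 16 cells, and in NK cells 63 held none.

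**Figure D3:**
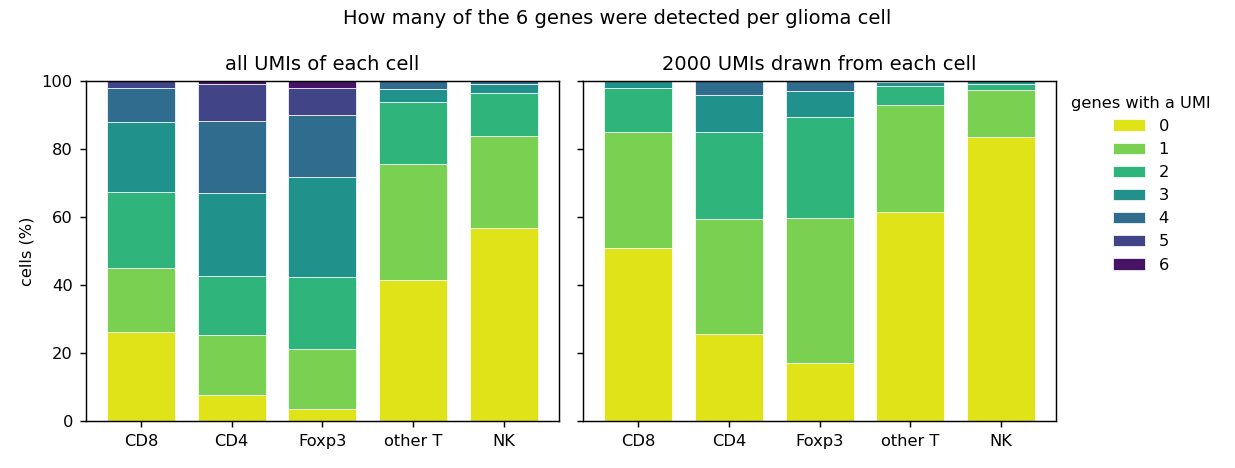
Stacked bars of the percentage of glioma cells in 5 classes with UMIs of 0 to 6 of the genes, with all UMIs (left) and with 2000 UMIs drawn from each cell (right). The part with 3 or more is 57.4% in CD4 and 32.6% in CD8 cells on the left, and 15.1% and 2.09% on the right.

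With all UMIs, CD4 and CD8 cells with 1 of Pdcd1, Ctla4, Lag3 and Havcr2 held the others more often than cells without it. In these 2 classes the differences were smaller at equal depth. Among CD4 cells, raw intervals overlapped for Ctla4 with and without Pdcd1, 73.3% (67.6 to 78.4) against 63.7% (55.0 to 71.8). They also overlapped for Lag3 with and without Ctla4, 60.8% (54.9 to 66.5) against 48.4% (39.2 to 57.6). Those of Havcr2 with and without Ctla4, 50.7% (44.7 to 56.6) against 35.2% (26.8 to 44.4), did not. Among CD4 cells with Pdcd1, 73.3% (67.6 to 78.4) also held Lag3, against 24.4% (17.5 to 32.6) of those without Pdcd1. After thinning, the values were 39.0% (31.4 to 47.0) and 26.0% (20.7 to 32.0), with intervals that touched. Havcr2 was found in 66.5% of CD4 cells with Lag3 and 18.9% without, and after thinning in 27.8% (20.2 to 36.5) and 14.7% (10.8 to 19.4), which did not overlap. Among CD8 cells, Ctla4 was found in 63.0% of those with Pdcd1 and 21.4% of those without, and after thinning in 26.3% (18.5 to 35.4) and 11.6% (8.0 to 16.0). The CD8 pair of Pdcd1 and Lag3, 50.7% against 16.8%, came to 13.2% (7.56 to 20.8) against 8.58% (5.52 to 12.6) after thinning, and was not distinguishable at that depth. That of Pdcd1 and Havcr2 went from 37.0% against 11.0% to 4.39% (1.44 to 9.94) against 6.72% (4.03 to 10.4). Its raw difference was not seen after thinning, and the thinned shares were not distinguishable. In Foxp3 cells, Havcr2 was found after thinning in 12.5% (3.51 to 29.0) of cells with Pdcd1 against 20.2% (13.1 to 28.9) without. For cells with Lag3 it was 12.8% (4.30 to 27.4) against 20.6% (13.2 to 29.7), and both pairs of intervals overlapped. With all UMIs, Pdcd1 was found in 55.2% (35.7 to 73.6) of the 29 CD8 cells with Tox and 54.9% (49.6 to 60.2) of those without. So few cells leave a wide range. In CD4 cells Pdcd1 was found in 78.2% (68.0 to 86.3) of cells with Tox and 63.9% (58.3 to 69.1) without. After thinning these CD4 shares were 41.4% (23.5 to 61.1) and 39.1% (34.1 to 44.2).

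**Figure D4:**
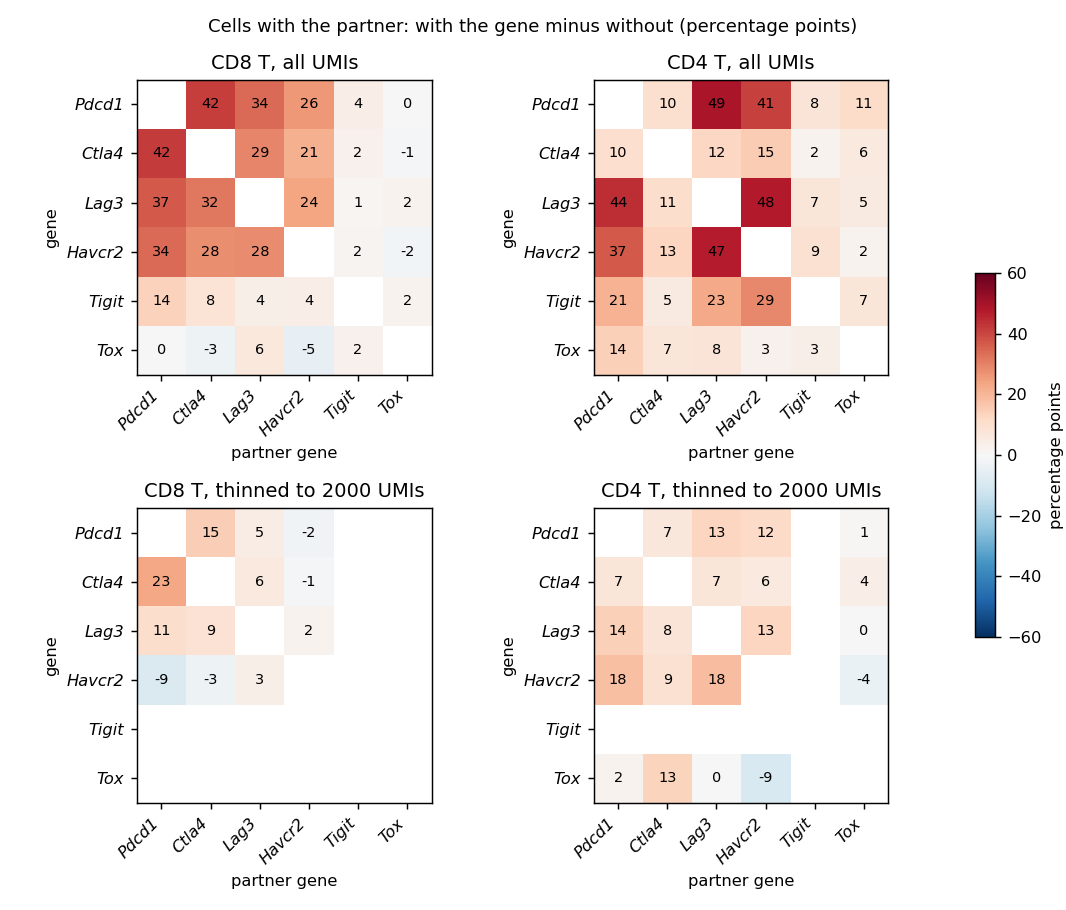
Percentage of cells with the partner gene (columns) among cells with the row's gene, minus the percentage among cells without it, for CD8 and CD4 cells with all UMIs (top) and thinned to 2000 UMIs (bottom); pairs with under 20 cells positive for either gene are blank. Among Pdcd1, Ctla4, Lag3 and Havcr2 the differences are smaller in the lower row, and that of Ctla4 among CD8 cells with Pdcd1 goes from 63.0 against 21.4% to 26.3 against 11.6%.

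CD8 cells that carried several receptors differed from those with none in genes of the naive state and of killing. Grouped by 0, 1, 2 and 3 or more of the 6 genes (100, 73, 86 and 125 cells), Tcf7, a factor of naive and stem-like cells, was at 150.1, 95.2, 49.8 and 31.0 CPM. Klf2, which keeps T cells in circulation, was at 382, 156, 99.6 and 50.01 CPM. Lef1, a partner of Tcf7 in naive cells, was at 147, 79.9, 44.1 and 41.5 CPM, and the exit receptor S1pr1 at 124, 61.2, 46.9 and 9.0. All 4 were lower at every step, though several neighbouring intervals overlapped, as in the last step of Lef1. Gzmb was higher at every step, from 321 through 994 and 1107 to 2382 CPM, and Nkg7 from 480.5 to 1305. Tnfrsf9 was at 60.5, 49.3, 114 and 276 CPM, Tnfrsf4 at 17.5, 27.2, 29.7 and 187, and Prf1 (perforin) at 46.5, 79.9, 63.2 and 161. Median depth also differed, at 7274 UMIs in cells with none and 13150 in cells with 3 or more. C1qa was at 47.7 and 30.0 CPM and Lyz2 at 101 and 71.0 CPM in those 2 groups. The MHC class II genes of antigen-presenting cells stood higher in the middle groups, with H2-Aa at 102, 469, 887 and 132 CPM and H2-Eb1 at 121, 552, 889.8 and 129.5 CPM from 0 to 3 or more. Lgals3 was at 129, 352, 349.6 and 275 CPM. The part of such RNA in the steps was not tested.

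As lists, between 3 or more and 0, 8 of 10 naive and stem-like genes were at least 2-fold lower and none higher, and 7 of 11 effector genes and 8 of 9 proliferation genes were at least 2-fold higher and none lower. Over all 7708 genes compared, 12.3% were higher and 5.23% lower. Of 8 other inhibitory receptors measured 5 were higher, Cd96 at 81.0 against 25.6 CPM among them, and 1 lower, Btla at 3.0 against 18.6. Ccr7 and Il7r, also on the naive list, stood at 233 against 259 and 193 against 181 CPM. Of 12 transcription factors 4 were higher, including Prdm1 (14.5 against 2.33 CPM, from 29 and 2 UMIs). Nr4a2 was at 57.5 against 51.2 CPM, with a log2 ratio of 0.16 (-0.34 to 0.70), and Nr4a3 at 44.5 against 79.1. Tox2 had 0 UMIs in all CD8 groups. The largest ratios among genes with at least 100 UMIs were upwards for Tff1, Ccl1, Gzmc, Gzmf, Rgs16 and Nrgn and included S1pr1, Klf2, Rhox5, Hspb1 and Tcf7 downwards. Several rest on few cells: Gzmf came from 13 of 125 cells and Ccl1 from 17, and the 34 Rhox5 UMIs from 1. Grouping by raw detection favours deep cells. With cells grouped after thinning, 57 with 2 or more of the genes against 194 with none, the log2 ratio was -2.60 for S1pr1, -1.99 for Klf2, -1.21 for Lef1 and -1.06 for Tcf7. It was 1.45 for Gzmb, 1.29 for Tnfrsf9 and 1.20 for Tnfrsf4. The ratio was under 2-fold for Prf1 (0.68), Nkg7 (0.63), Ifng (0.53), Gzmc (0.24), Tff1 (0.24) and Ccl1 (-0.48). Of the proliferation genes, Pclaf was at 0.83, Birc5 at 0.69 and Mki67 at -0.13, so that these 3 did not reach 2-fold. This grouping changed the cut as well as the depth. With 3 or more genes after thinning, which left 8 cells, Prf1 was at 2.06, Ifng at 1.03, Tff1 at 2.35 and Ccl1 at 2.05. Nkg7 (0.80), Gzmc (0.23), Pclaf (0.61), Birc5 (-0.35), Mki67 (0.68) and Tnfrsf4 (-0.52) did not reach 2-fold upwards there. Prf1, Ifng, Tff1 and Ccl1 thus fell under 2-fold only with the looser cut.

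**Figure D5:**
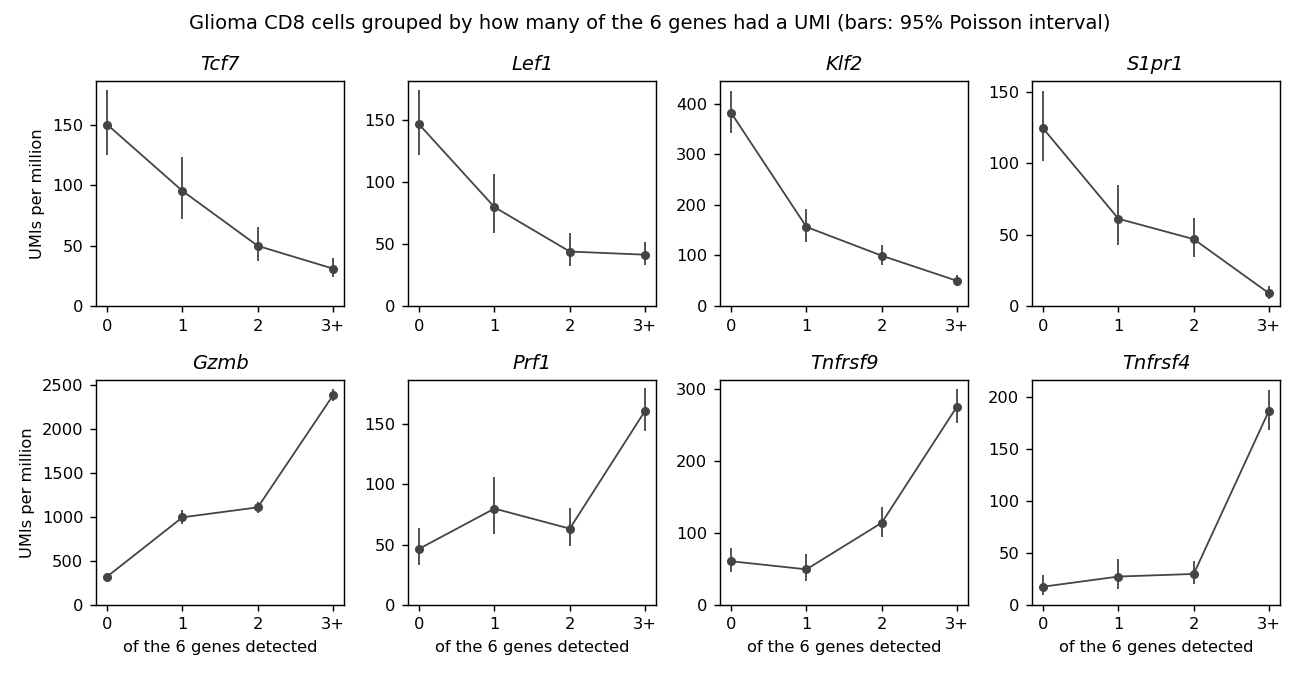
CPM of 8 genes in glioma CD8 cells grouped by how many of the 6 genes had a UMI (0, 1, 2, or 3 and more), with 95% Poisson intervals. The upper row is lower at each step, S1pr1 from 124 to 9.0, and the lower row is highest in the last group, Gzmb at 2382.

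CD4 cells were grouped in the same way, a comparison chosen after the data were seen. The 234 cells with 3 or more of the genes, at a median depth of 9368.5 UMIs, were set beside 31 cells with none, at 4847 UMIs. Ifng, the gene of the cytokine interferon gamma, was at 946 CPM in the former and 65.7 CPM in the latter (log2 ratio 3.78, 3.01 to 4.85). Nkg7, a gene of cytotoxic granules, was at 1246 against 143 CPM. Prf1 was at 129 CPM against 0 UMIs, or 7.21-fold higher when 3 UMIs are taken for the group with 0. Taken the same way, Ccl1 was 64.2-fold higher, with UMIs in 141 of the 234 cells, and Gzmf 54.0-fold higher, with UMIs in 39. The exact intervals of the log2 ratios of Ccl1 and Gzmf began at 5.71 and 5.46. S1pr1 was at 7.39 against 119 CPM, Klf2 at 50.2 against 245, Tcf7 at 12.1 against 71.6 and Bcl2, a survival gene, at 47.1 against 364. Of 11 effector genes 6 were at least 2-fold higher and 1 lower, and of 9 proliferation genes 8 were higher, where 17.9% of 7523 genes were higher and 10.9% lower. With cells grouped after thinning, 61 against 104, the log2 ratio was 1.92 for Ifng, 1.95 for Nkg7, 3.22 for Prf1, 2.29 for Ccl1, -2.84 for S1pr1, -3.04 for Tcf7, -0.75 for Klf2 and -0.86 for Bcl2, and 287 genes were higher, beside 1345 by raw detection. Nr4a2, at 91.0 against 5.97 CPM from 1 UMI by raw detection, had a log2 ratio of 0.02 after thinning. Ifng stood at 34.5 CPM in CD8 cells with 3 or more of the genes, and whether the 2 lineages differ in these ratios was not tested.

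The genes whose levels ran most like each of the 6 were found over 14 class sums of both libraries with at least 50 cells, by Pearson correlation of log2(CPM + 10) among 11928 genes. These sums come from 2 libraries and 1 of them is the control dendritic gate, which went against its name, so the correlations describe the pattern only. Pdcd1 ran with Celsr1, Trbc2 and Xlr4c (0.98 each), Ctla4 with Nmb, Gstp3 and Icos (0.98 each), and Tox with Icos (0.98), Podnl1 (0.98) and Ctla4 (0.97). Tigit ran with Itpk1 (0.94), Tnik (0.93) and Slc43a3 (0.92). Lag3 ran with Gna15 (0.90), Galnt12 (0.89) and Acads (0.87), and Havcr2 with Ubash3b (0.91), Hcls1 (0.89) and Dok1 (0.89). Among the 6 themselves, Pdcd1 and Ctla4 reached 0.94, Lag3 stayed between 0.23 and 0.31 with each of the others, and Havcr2 stayed between -0.13 and 0.04 with Pdcd1, Ctla4, Tigit and Tox.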

How the data were processed

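CD45+ cells of normal mouse brain and of glioma were profiled with Chromium 3' kits, per the labels' protocols. The authors deposited raw counts, UMIs per gene and barcode without normalization. Cell Ranger 3.0.2, STAR and Seurat 3 appear in the submitters' processing notes, with a mouse and a human build. Each table lists 6794880 barcodes and 31053 genes, with 124023146 UMIs in control and 159689787 in glioma. Passing barcodes had median depths of 6842 and 11332 UMIs.

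Classes were gated by raw marker UMIs, without a doublet caller: T cells had at least 2 CD3 UMIs and at most 3 of a myeloid panel. Summed UMIs were scaled to CPM, and ratios are log2 with 0.5 UMIs added to each sum. Without replicates there is no test. A gene with at least 20 UMIs over both sums counts as higher or lower at 2-fold. Intervals are 95% Poisson (sums), Clopper-Pearson (shares) or conditional binomial (ratios). For a fold against a sum of 0, 3 UMIs were taken in its place. Cells were thinned to 2000 UMIs by hypergeometric draws. Free RNA came from barcodes of 10 to 100 UMIs without those of at least 500 UMIs in the other library, scaled by genes foreign to the class. It is an upper limit, itself uncertain for a gene with few UMIs in the free RNA.

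The 6 genes and the lists (ligands, other inhibitory receptors, costimulatory receptors, transcription factors, naive and stem-like, effector, proliferation, receptor signalling) were chosen with earlier results of these data known. Other genes named come from these lists, from the 6 largest ratios each way in CD8 and CD4 cells among genes with at least 100 UMIs, and from the 3 best correlations. A result that this rule would name is not reported here. The ratios and intervals were tested on simulated data. Python 3.11.15, numpy 2.4.6, scipy 1.17.1, pandas 2.3.3 and matplotlib 3.10.9 were used. Alternatives covered depth and mitochondrial limits, gates, shared barcodes, per-cell means and thinning.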

Additional observations from a re-analysis of the deposited data

Results flagged for a closer look

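Barcodes with both CD3 and myeloid UMIs were kept out of every comparison, yet in the glioma library they held 3 of the receptor genes above the level of the same barcodes in the control library. Pdcd1 was at 99.2 CPM (92.8 to 105.9) in the 400 glioma barcodes and at 21.6 CPM (16.3 to 28.1) in the 139 control barcodes. Ctla4 was at 174 CPM (166 to 183) against 12.6 (8.59 to 17.7), and Havcr2 at 119.9 CPM (113 to 127) against 66.7 (57.1 to 77.5). Lag3 and Tox went the other way, at 76.4 CPM (70.9 to 82.4) against 170.3 (155 to 187) and at 9.28 CPM (7.40 to 11.5) against 23.1 (17.6 to 29.9). Tigit was at 3.65 CPM (2.51 to 5.12) against 2.35 (0.864 to 5.12), with overlapping intervals. These glioma barcodes had a median of 20070.5 UMIs, against 7451.5 in glioma T cells and 12652.5 in glioma myeloid cells. In the control library such barcodes, at a median of 16441 UMIs, held 60.2% of the Tox and 48.5% of the Ctla4 UMIs of passing barcodes. Of the 7 Tigit UMIs in passing control barcodes they held 6. The glioma barcodes held 34.0% of the Ctla4 UMIs and 20.6% of the Pdcd1 UMIs of passing barcodes. Whether they are pairs of cells was not tested.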

How the results depend on the processing

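No paired analysis was possible because each group is 1 pooled library, and for the same reason no replicate could be left out. Of 324 alternatives to 40 values of the 6 genes and counts of genes, 303 stayed within their interval (counts: within 1.5 times), 21 moved, and none reversed. The cause was not tested. In T cells against control the log2 ratio of Ctla4 was 3.16 with at most 1 myeloid UMI, 0.80 by per-cell means and 3.62 without the cell with most UMIs, and that of Havcr2 1.21 with up to 8 myeloid UMIs. For Foxp3 against CD4, Pdcd1 was at -0.94 with at most 1 myeloid UMI and Lag3 at -0.31 by per-cell means. For NK against CD8, Havcr2 was at -0.12 with up to 8 myeloid UMIs. In myeloid cells Lag3 was at -6.64 with a 5% mitochondrial limit, and Havcr2 at -0.20 with that limit, -0.19 by per-cell means and -0.32 with up to 8 myeloid UMIs.

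Thinned to 1000 UMIs, Pdcd1 was found in 24.5% and Lag3 in 21.6% of CD4, Ctla4 in 38.0% of Foxp3 and Havcr2 in 11.1% of myeloid cells, and 3 or more genes in 0.521% of CD8, 5.15% of CD4, 3.52% of Foxp3 and 0% of NK cells. For CD8 cells with 3 or more genes against 0, 1006 genes were lower when cells were grouped after thinning, which left 8 cells on that side, beside 403 by raw detection. With 2 or more genes after thinning 281 were higher, beside 951, and the log2 ratio of Ccl1 changed sign, to -0.48. With the 8 cells those of Tnfrsf4 (-0.52), Birc5 (-0.35), Gzmf (-1.21) and Btla (0.42) changed sign. Of 1196 alternatives to 130 values of other genes, 1066 stayed within their interval, 125 moved and these 5 reversed, counting only values past 2-fold as reversed. The myeloid limit of 8, the removal of a cell, the comparison of CD4 cells by number of genes, that with 2 or more genes and the free RNA without barcodes of the other library were chosen after seeing the data. Sparse genes limit precision most: Tigit had 160 and Tox 367 UMIs in the glioma library.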

Other observations

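Glioma dendritic cells, which have no part in the comparisons, carried receptor transcripts above the level that free RNA could give. Pdcd1 was at 8.10 CPM, with UMIs in 29 of 409 cells, against at most 0.862 CPM from free RNA. Ctla4 was at 7.84 CPM against at most 2.10, and Lag3 at 10.6 CPM, in 49 cells, against at most 0.97. The T cell gene Trac was at 0.93 CPM in the same cells. Thinned to 2000 UMIs, Pdcd1 was found in 3.21% of them (1.72 to 5.43). The gate admitted no barcode with a CD3 UMI, and pairs of cells were not searched for.

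The share of receptor UMIs in the cells with most of them was read in CD8 and CD4 cells. The 39 glioma CD8 cells with most UMIs of each gene held 47.5% of the Pdcd1, 55.4% of the Ctla4, 59.5% of the Lag3 and 65.4% of the Havcr2 UMIs. In CD4 cells, the top 41 held 39.2%, 44.2%, 42.8% and 45.7% of the same genes. Cells were ranked by the same UMIs and depth was not equalised, so a gene found in few cells gives a high share. Tigit and Tox, found in 31 and 29 CD8 cells, reached 100% there. Whether the spread differs between the classes was not tested.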
